A study of Mus musculus with 5 samples.

Results

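Pericytes of the mouse lung were examined in single-cell RNA sequencing libraries made from whole-lung suspensions at postnatal day 7 (pnd7) and pnd60. Newborn C57BL/6J mice, under 12 h old, were kept with their dams in room air or in hyperoxia (above 95% oxygen) for 3 days, and all pups then stayed in room air until harvest. The libraries are named AirD7 and O2D7 for room air and hyperoxia at pnd7, and AirD60 and O2D60 for the same exposures at pnd60. Each condition was represented by 1 library, so no difference between conditions could be set against the spread between animals, and no test was made. A further library, SD7, held cells of hyperoxia-exposed pnd7 lungs sorted for the senescence-associated beta-galactosidase substrate C12FDG.

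A barcode was kept when it had 701 to 7999 genes detected and under 5% of its counts from mitochondrial features. It was called a pericyte when it had at least 1 count of 2 or more of the 6 genes Cspg4, Pdgfrb, Trpc6, Higd1b, Cox4i2 and Gucy1a1, fewer than 5 counts of Acta2, no Pecam1 and no Cdh5 counts, and fewer than 3 of 6 alveolar fibroblast genes (Tcf21, Npnt, Slc7a10, Col13a1, Mfap4 and Inmt). These 6 genes and the genes of the exclusions therefore chose the cells, and their values below are a description. Of the 12707 filtered barcodes of the 4 unsorted libraries, 126 met the rule. They were 36 of 2308 in AirD7, 29 of 1246 in O2D7, 28 of 4397 in AirD60 and 33 of 4756 in O2D60. As shares of filtered barcodes these were 1.56% (exact 95% binomial interval 1.09 to 2.15) in AirD7, 2.33% (1.56 to 3.33) in O2D7, 0.637% (0.424 to 0.919) in AirD60 and 0.694% (0.478 to 0.973) in O2D60. The intervals of the air and hyperoxia libraries overlapped at each age, and both pnd60 shares were below both pnd7 shares. No barcode of SD7 met the rule among 493 filtered, which allows a share of up to 0.609% taken at 3 barcodes, or 0.745% as the upper limit of the exact interval. No member barcode was shared between libraries.

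A count is a unique molecular identifier (UMI), that is, 1 captured RNA molecule. The 126 cells held 381012 counts in AirD7, 355646 in O2D7, 84339 in AirD60 and 108460 in O2D60, and their median count per cell was 6888.5, 4752, 2310.0 and 2216. Levels are given as CPM, the summed counts of a gene in a group of cells scaled to the same total for every group, with an exact 95% Poisson interval, and differences as the log2 ratio of 2 CPM values with an exact binomial interval. All of these intervals cover counting error only, and hold nothing of the variation between cells, animals or library preparations. For a gene at 0 in 1 group the ratio is given as a bound, taken at 3 counts. This bound is somewhat tighter than the limit of the exact interval. Fewer cells of a type and lower capture of that type cannot be told apart in these shares.

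Pericytes sit on capillaries within the basement membrane they share with the endothelium. Endothelial PDGF-B recruits them through the receptor encoded by Pdgfrb, NOTCH3 takes part in their maturation, and nitric oxide from the endothelium acts on their soluble guanylate cyclase, whose product cGMP relaxes contractile cells. Lung pericytes are known for a set of mitochondrial paralogs, Cox4i2, Ndufa4l2 and Higd1b, which resemble the widely expressed Cox4i1, Ndufa4 and Higd1a. In the GENCODE vM21 annotation of mm10, Cox4i2 lies at chr2:152754173-152765037, Higd1b at chr11:102835849-102838040, Ndufa4l2 at chr10:127514967-127517154, Gucy1a1 at chr3:82092427-82145789, Cspg4 at chr9:56865033-56899870 and Trpc6 at chr9:8544142-8680741.

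The label held for some of the 126 cells and not for others. Exactly 2 of the 6 rule genes were found in 62 cells, 3 or 4 in 24, and 5 or 6 in 40. As a check that the rule did not use, 23 further genes linked with pericytes were counted in each cell, among them Notch3, Postn, Kcnk3, Ndufa4l2, Pde5a, Mcam and Rgs5. The median number of these 23 genes with a count was 2 in the cells with 2 rule genes, 5.5 in those with 3 or 4 and 13 in those with 5 or 6. Notch3 had a count in 9 of the 62 cells with 2 rule genes, in 9 of the 24 with 3 or 4 and in all 40 with 5 or 6. Postn, which encodes the matrix protein periostin, had one in 15, 16 and 40 of them.

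Cells with few rule genes often carried RNA of other lineages. Of the 62 cells with 2 rule genes, 15 had a count of Epcam, an epithelial adhesion molecule, and 20 had one of Ptprc, the leukocyte antigen CD45. At least 1% of the counts came from 8 epithelial genes in 25 of these cells, 3 or more leukocyte genes were detected in 22, and the fibroblast gene Dcn in 10. Only 7 of the 62 had none of these signs and less than 5% hemoglobin counts, whereas 36 of the 40 cells with 5 or 6 rule genes had none. The data therefore went against the label for most cells with 2 rule genes. At the lower border of the rule, filtered cells that met all its other terms but had 1 rule gene had a median of 1 further gene in AirD7 (142 cells), 2 in O2D7 (93 cells), 1 in AirD60 (163 cells) and 1 in O2D60 (208 cells). Members with 2 rule genes, just inside it, had medians of 3, 2.5, 2 and 2 (19, 12, 13 and 18 cells).

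**Figure D1:**
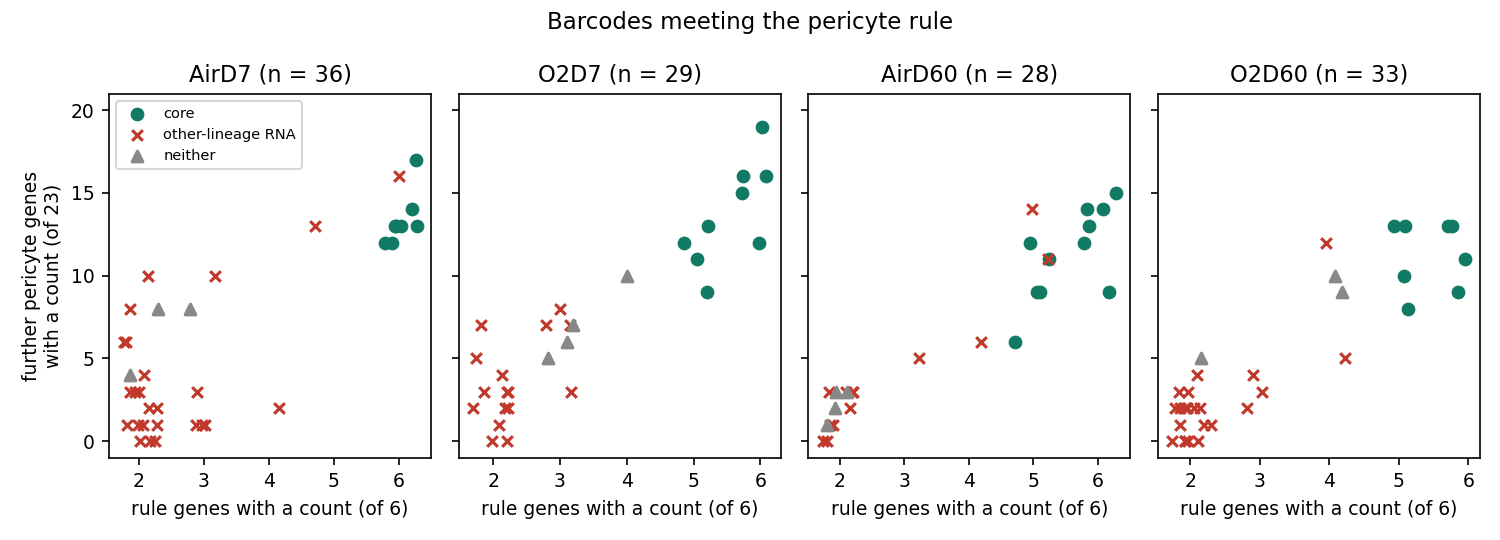
Each point is 1 of the 126 cells; the x axis counts rule genes with a count (of 6), the y axis further pericyte genes with a count (of 23), and points are shifted slightly sideways. Green circles are core cells, red crosses cells with RNA of another lineage and grey triangles neither; 39 of the 49 cells with 8 or more further genes had 5 or 6 rule genes, and the crosses gather at 2.

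The cells with 5 or 6 rule genes and no count of Ptprc or Epcam are called the core below, a set defined after these values were seen. The core held 8 cells in AirD7, 9 in O2D7, 11 in AirD60 and 8 in O2D60, 36 in all. They were 0.347% of filtered barcodes (0.150 to 0.682) in AirD7, 0.722% (0.331 to 1.37) in O2D7, 0.250% (0.125 to 0.447) in AirD60 and 0.168% (0.0726 to 0.331) in O2D60. The core held 39745, 45633, 23087 and 17610 counts, with medians per cell of 4989.5, 4222, 1862 and 2200.0. Core cells were 22.2% of the members in AirD7 but gave 10.4% of their counts, and in AirD60 they were 39.3% of the members and gave 27.4% of the counts. Comparisons on the whole set of 126 cells therefore drew most of their counts from outside the core, and the genes below are given for the core unless the whole set is named.

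The exclusion on Acta2, smooth muscle actin, also bounded the set from above, and more so at pnd7. Filtered barcodes with 5 or 6 rule genes numbered 35 in AirD7, 39 in O2D7, 23 in AirD60 and 20 in O2D60, of which 10, 9, 13 and 8 were members. The Acta2 limit alone removed 13 and 15 of them at pnd7 and 1 and 1 at pnd60. The endothelial genes alone removed 2, 1, 7 and 1, and the fibroblast limit alone removed 1, 1, 0 and 3. More than 1 limit applied to 9, 13, 2 and 7. A further 7, 18, 1 and 2 barcodes with 5 or 6 rule genes did not pass the filter on genes detected and mitochondrial counts. Within the core, Acta2 was at 0 in 6 of 8 cells of AirD7, 6 of 9 of O2D7, 8 of 11 of AirD60 and 6 of 8 of O2D60.

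The core cells shared genes that the rule did not use. All 36 had a count of Notch3, of Postn and of Kcnk3, an acid-sensitive potassium channel gene, and 33 had one of Ndufa4l2. Among leukocytes, which should lack these genes, Notch3 had a count in 2.18% of cells in AirD7, 3.37% in O2D7, 0.823% in AirD60 and 1.21% in O2D60. Their median counts per cell were 5330.0, 6635, 2057.5 and 2192.5, against 4989.5, 4222, 1862 and 2200.0 in the core, so leukocytes of O2D7 were deeper than its core cells. Postn had a count in 4.06%, 5.06%, 1.84% and 2.00% of leukocytes, and Kcnk3 in 4.68%, 2.81%, 1.45% and 1.10%. In the Acta2-high cells described below, Notch3 had a count in 21.3%, 30.8%, 38.5% and 42.9%. Postn had one there in 48.1%, 54.8%, 46.2% and 35.7%, and Kcnk3 in 80.0%, 84.6%, 100% and 78.6%. Some further pericyte genes were rare in the core. Anpep and Steap4 had a count in 0 core cells, Lamc3 in 0, 0, 2 and 0, and Rgs4 in 2, 2, 2 and 1. The core was chosen without Ptprc or Epcam, and the rule itself set limits on Acta2, Pecam1, Cdh5 and fibroblast genes, so low levels of these lineages' markers are in part fixed by the choice. Laptm5, Cdh1, Pdgfra, Dcn and Msln, which mark leukocytes, epithelium, fibroblasts and mesothelium, were at 0 in all 4 libraries. The 9 smooth muscle genes summed to 63, 57, 29 and 42 counts, mostly Mylk and Des with Cnn1, Pln and Myocd at 0, the 9 myofibroblast genes to 18, 24, 14 and 24, mostly Aspn and Enpp2, and the 8 endothelial genes to 4, 6, 11 and 5, mostly Tmem100. The 7 alveolar fibroblast genes summed to 6, 6, 5 and 4 counts, mostly Plin2 and Gyg, and the 7 adventitial fibroblast genes to 3, 0, 0 and 0. The 9 genes that the rule limited summed to 45, 36, 28 and 29 counts, a log2 ratio of 1.06 (0.30 to 1.81) with age after hyperoxia and 0.10 (-0.64 to 0.81) in air. The most counted of them was Tcf21 at pnd7 and Npnt at pnd60. Tcf21, a fibroblast transcription factor, had 23, 20, 3 and 6 counts, and Npnt, encoding a basement membrane protein, 14, 10, 13 and 13. The 8 leukocyte genes summed to 2, 1, 2 and 0 counts, and the 8 epithelial genes to 9, 20, 10 and 15, mostly Sftpc at pnd7 and Scgb1a1 at pnd60. The 5 erythroid genes summed to 78, 94, 4 and 33 counts, of which those in O2D60 came from 1 cell.

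None of the 6 genes that chose the cells differed past 2-fold between the exposures or the ages, and their levels are in part fixed by that choice. Gucy1a1, the alpha subunit of soluble guanylate cyclase, was at 4806 CPM in AirD7, 5216 in O2D7, 5501 in AirD60 and 5395 in O2D60. Cox4i2, a subunit of cytochrome c oxidase, was at 2893, 2586, 2902 and 2442 CPM, and Pdgfrb at 2516, 2389, 3508 and 3066. Higd1b, a paralog of a hypoxia-inducible mitochondrial protein, was at 1661, 1863, 1083 and 1022 CPM, lower in both pnd60 libraries than in both pnd7 libraries. Its log2 ratio between the ages was -0.62 (-1.34 to 0.07) in air and -0.87 (-1.69 to -0.12) after hyperoxia. The fewest counts were those of Trpc6, a cation channel, at 503, 657, 693 and 681 CPM and Cspg4, the proteoglycan NG2, at 528, 351, 693 and 681 CPM (21, 16, 16 and 12 counts).

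Among the further pericyte genes, Postn reached 9309 CPM (370 counts) in AirD7, 7779 (355) in O2D7, 6757 (156) in AirD60 and 8348 (147) in O2D60. Its log2 ratio of pnd60 over pnd7 was -0.46 (-0.74 to -0.19) in air and 0.10 (-0.19 to 0.38) after hyperoxia. Pde5a, the phosphodiesterase that degrades cGMP, was at 4353, 4186, 5111 and 5735 CPM. Mcam, the adhesion molecule CD146, was at 2239, 2059.9, 1906 and 2101 CPM, within the counting error of each other. Ndufa4l2 was at 1509.6, 1381, 1126 and 1022 CPM. Rgs5, a regulator of G-protein signalling and a pericyte marker in many organs, was low, with 7, 21, 2 and 0 counts, and Kcnj8, a potassium channel gene used as a marker in brain, had 3, 1, 0 and 0. Ebf1, a transcription factor of mural cells, had 23, 25, 14 and 17 counts and Emid1, a matrix protein gene, 22, 42, 9 and 15.

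**Figure D2:**
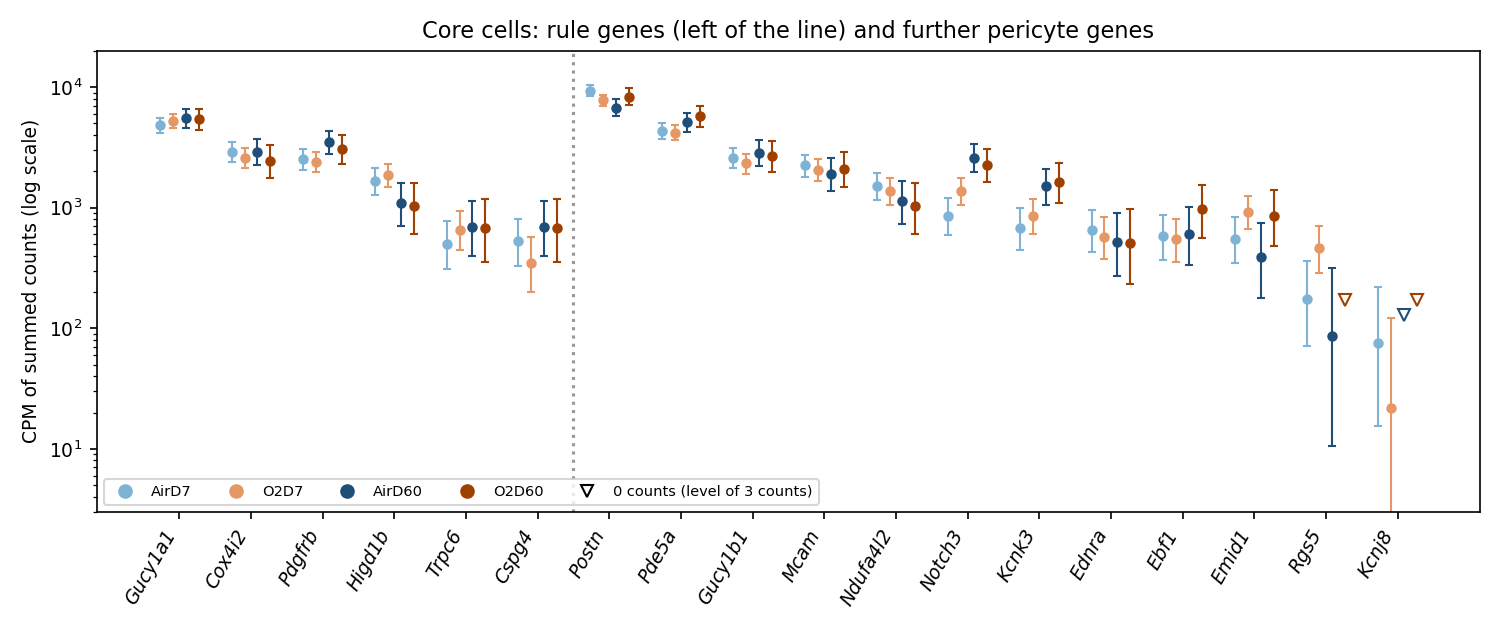
Level of each gene in the core as CPM of summed counts (log axis), with exact 95% Poisson intervals, for AirD7, O2D7, AirD60 and O2D60; the genes left of the dotted line chose the cells. Most genes keep their level in all 4 libraries, Notch3 and Kcnk3 are higher in both pnd60 libraries, and open triangles mark a count of 0 at the level of 3 counts.

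The core was set beside the classes most like it in the same library. Acta2-high cells (235, 104, 13 and 14 cells), which hold smooth muscle and myofibroblasts, and alveolar fibroblast-like cells (201, 84, 294 and 330 cells) were defined by the Acta2 and fibroblast gene limits, so those genes differ by construction, as do the 6 rule genes that chose the core. Of 116 genes with enough counts in every library, 15.5% were more than 2-fold higher in the core than in Acta2-high cells in all 4 libraries and 18.1% were lower in all 4. Against alveolar fibroblast-like cells the shares were 3.37% higher and 3.91% lower of 2430 genes. In the core itself, only 268 genes had at least 20 counts in O2D60 and AirD60 together. Most of the 2430 genes therefore had fewer core counts than that at pnd60, and were compared because of their fibroblast counts. Genes that chose the core are also among those counted. The shares against both classes depend on these limits and on depth, and do not measure how distinct the core is.

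Of the 12 genes that ranked highest above Acta2-high cells, Gucy1a1, Cox4i2 and Pdgfrb were rule genes, and their excess was fixed by the choice of cells. Among the others, Postn was 3.17 to 4.47 higher on the log2 scale over the 4 libraries. Gucy1b1, the beta subunit of soluble guanylate cyclase, was 3.02 to 4.54 higher and Pde5a 1.88 to 3.39. Pdzd2, a PDZ domain protein gene outside the lists, ranked first by its smallest ratio over the 4 libraries, at 2390.2 CPM in AirD7 against 23.1, 3287 against 142 in O2D7, 4678 against 136 in AirD60 and 4373 against 74.8 in O2D60. Col4a1, a chain of type IV collagen of the basement membrane, was at 4856, 5741, 3985 and 3805 CPM in the core against 1322, 1436, 467 and 674 in Acta2-high cells, a log2 ratio of 1.88 to 3.09. Kcnk3 differed less, by 0.33 to 1.26, and past 2-fold only in O2D7. In the other direction, Mgp, an inhibitor of calcification, had log2 ratios of -5.53 to -4.79, Eln, encoding elastin, of -7.37 to -3.87, and Tagln, an actin-binding protein of smooth muscle, of -6.49 to -2.64.

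Against alveolar fibroblast-like cells Notch3 was 4.90 to 8.61 higher, Mcam 5.65 to 7.63, Pde5a 4.41 to 5.73 and Postn 4.25 to 9.57. Col4a1 differed by nearly the same amount in each library, 2.98 to 3.26. Fos, an immediate early transcription factor gene, was at 0, 21.9, 86.6 and 170.4 CPM in the core, against 724, 1197, 1199 and 1336 in alveolar fibroblast-like cells and 911.5, 1093, 2005 and 2419 in Acta2-high cells. Its lower level in the core held in all 4 libraries against both classes, on 0, 1, 2 and 3 counts.

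Ndufa4l2 was higher and Ndufa4 lower in the core than in alveolar fibroblast-like cells. Ndufa4, the widely expressed partner of Ndufa4l2, had 0 counts in AirD7, 1 in O2D7, 0 in AirD60 and 0 in O2D60, against 660, 825, 243 and 284 CPM in alveolar fibroblast-like cells. The log2 ratio of Ndufa4 was therefore at most -3.13 in AirD7, -5.23 in O2D7 (-10.54 to -2.75), and at most -0.90 and -0.74 at pnd60, where the counts were few. Ndufa4l2, which the rule did not use, was 4.58 to 7.11 higher in the core. Cox4i1, the partner of Cox4i2, was present in both classes at pnd7, at 830.3 and 745 CPM in the core against 713 and 748 in alveolar fibroblast-like cells. At pnd60 Cox4i1 had 2 and 7 counts in the core, or 86.6 and 398 CPM against 391 and 398. Cox4i1 was past 2-fold lower in AirD60 (log2 -2.17, -5.22 to -0.31) and within 2-fold in the other libraries. Higd1a had 4, 4, 0 and 0 counts in the core, too few to compare. Cox4i2 and Higd1b chose the cells, so their excess is not read here.

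**Figure D3:**
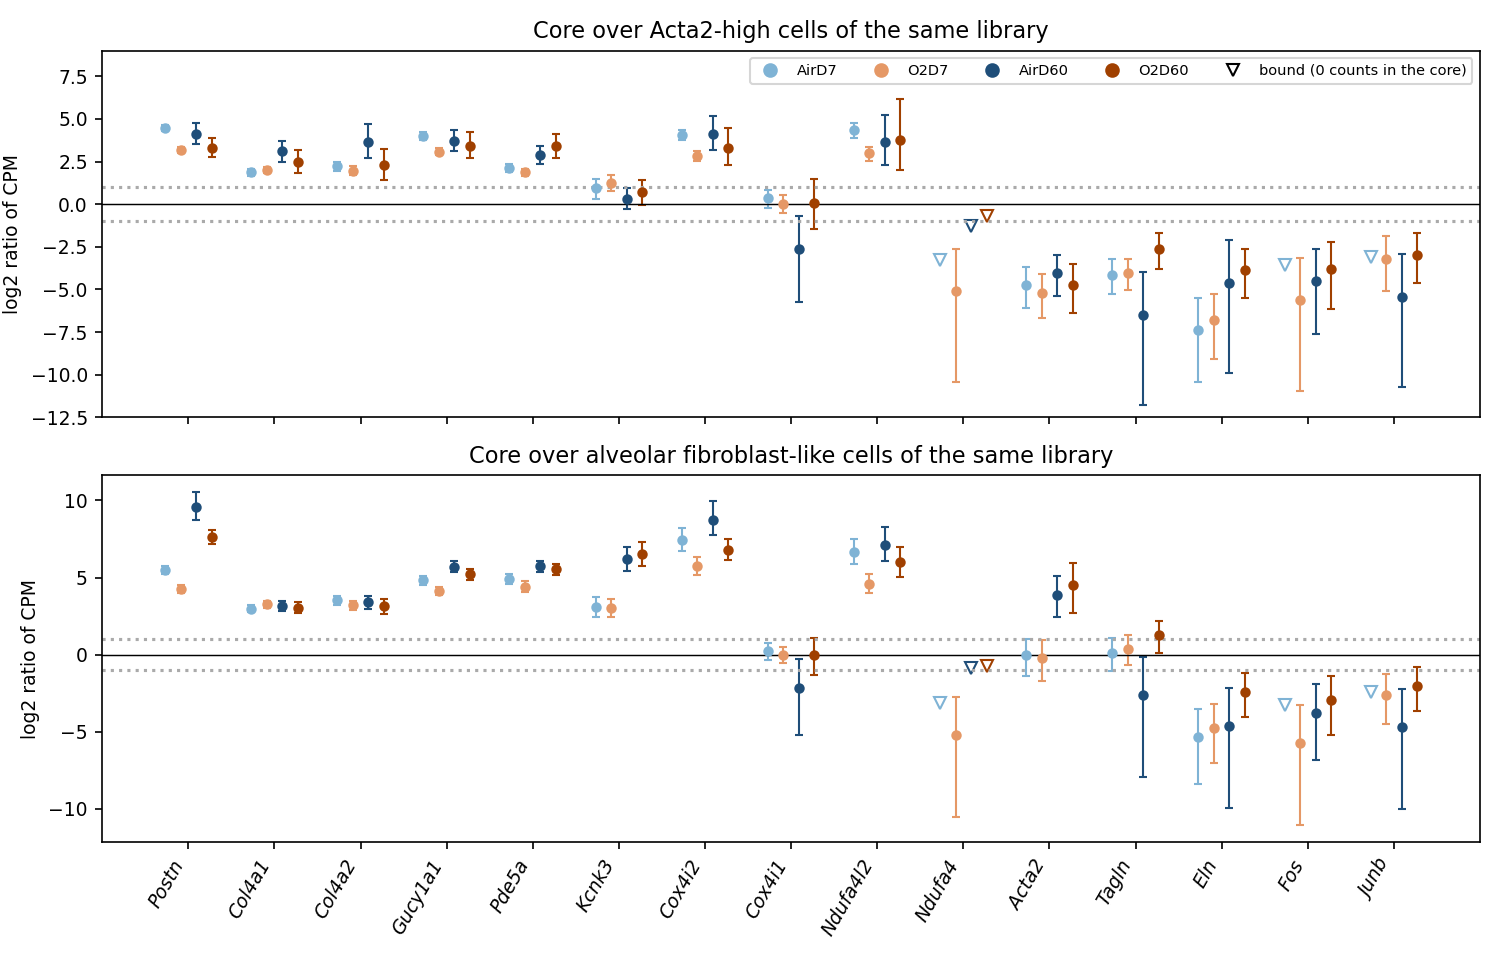
log2 ratio of CPM of core cells over Acta2-high cells (top) and over alveolar fibroblast-like cells (bottom) of the same library, with exact 95% counting intervals; dotted lines mark 2-fold and open triangles upper bounds where the core had 0 counts. Postn, Col4a1, Pde5a and Ndufa4l2 lie above 2-fold against both classes in all 4 libraries, as do Gucy1a1 and Cox4i2, which chose the cells, and Ndufa4, Eln, Fos and Junb lie below the zero line.

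The widest differences in the core were between the ages. At least 20 counts in the 2 libraries together were asked of a gene, and a gene was counted as different when the CPM ratio passed 2-fold. In air, 526 genes were compared, of which 16.2% (85 genes) were higher and 30.4% (160 genes) lower at pnd60. After hyperoxia 522 genes were compared, of which 11.9% (62 genes) were higher and 31.6% (165 genes) lower. The count of 245 in air was 504 with the cells of 5 or 6 rule genes and Ptprc or Epcam counts added back and 34 in cells thinned to 1000 counts, and the 227 after hyperoxia were 23 in thinned cells. The number of genes that reach the minimum also changes under these settings, so these counts are not shares. The balance depended on the scaling: with TMM factors the counts were 61 higher and 193 lower in air and 36 and 218 after hyperoxia, and median-of-ratios size factors gave 71 and 172, and 42 and 212. The median log2 ratio over all genes was -0.22 in air with the plain totals and -0.52 with TMM factors, and -0.21 and -0.60 after hyperoxia. The 2 age comparisons use no library in common. Of 422 genes compared in both, 111 were lower in both, 22 higher in both and 2 went in opposite directions. The median count per core cell was also lower at pnd60 (1862 and 2200.0 against 4989.5 and 4222), and the part of depth in these values was not tested.

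Ribosomal protein genes made up 61 of the 160 lower genes in air and 57 of the 165 after hyperoxia. In air, 61 of 65 ribosomal protein genes were past 2-fold lower at pnd60 and 0 higher, with a median log2 ratio of -2.33, while the other 461 genes had 99 lower, 85 higher and a median of -0.02. After hyperoxia, 57 of 64 were lower and 1, Rps15, was higher, with a median of -1.88, against 108 lower, 61 higher and a median of -0.06 among the other 458. Rpl32, for example, had 65 counts in AirD7, 47 in O2D7, 1 in AirD60 and 2 in O2D60. Ribosomal protein genes took 7.80% of core counts in AirD7, 6.77% in O2D7, 1.66% in AirD60 and 1.95% in O2D60. Over all filtered cells the share was also lower at pnd60, at 12.9%, 12.6%, 9.46% and 9.84%. It was 11.9%, 11.9%, 5.21% and 5.69% in alveolar fibroblast-like cells, and 17.1%, 16.8%, 13.2% and 13.5% in leukocytes. Malat1, a nuclear noncoding RNA, went the other way in the core, from 2.81% and 5.22% of counts at pnd7 to 10.3% and 8.43% at pnd60. Its share was also higher at pnd60 in alveolar fibroblast-like cells, at 3.16%, 3.57%, 4.92% and 4.55%, and in Acta2-high cells, at 2.94%, 2.59%, 4.54% and 6.11%. The part of RNA quality in the age comparisons was not tested.

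**Figure D4:**
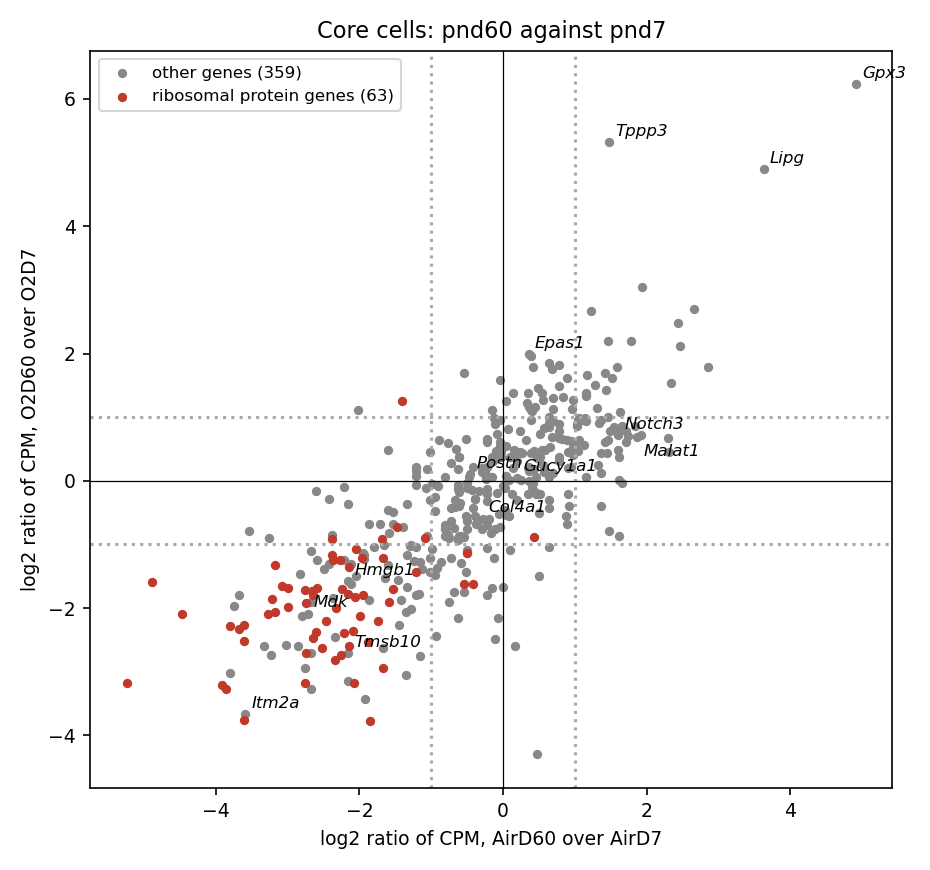
log2 ratio of CPM at pnd60 over pnd7 in core cells, in air (x axis) and after hyperoxia (y axis), for the 422 genes with at least 20 counts in both comparisons; dotted lines mark 2-fold. The 63 ribosomal protein genes (red) lie mostly in the lower left, and Lipg and Gpx3 lie at the upper right.

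Some named genes outside the ribosomal group were lower at pnd60 in both comparisons. Tmsb10, encoding the actin-sequestering thymosin beta 10, was at 8303 CPM in AirD7, 6289 in O2D7, 1863 in AirD60 and 965 in O2D60, a log2 ratio of -2.16 (-2.65 to -1.69) in air and -2.70 (-3.50 to -2.00) after hyperoxia. Itm2a, a membrane protein gene, was at 2088, 2169, 173 and 170.4 CPM, and its ratio was -3.59 (-5.50 to -2.18) and -3.67 (-5.97 to -2.08). In alveolar fibroblast-like cells Itm2a was at 159.9, 154, 25.2 and 29.2 CPM. Mdk, a heparin-binding growth factor of development, had 34 and 33 counts at pnd7 and 0 and 0 at pnd60, so its log2 ratio was at most -2.72 in air and -2.09 after hyperoxia. Mest, an imprinted gene expressed in fetal mesoderm, had 51 counts in AirD7 (18 in 1 cell), 11 in O2D7 and 0 in both pnd60 libraries. It was past 2-fold lower in air only, because its counts after hyperoxia were below the minimum of 20. Lgals1, a galectin, had 81, 86, 5 and 5 counts. For each of these genes both pnd60 levels lay below both pnd7 levels.

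A smaller group was higher at pnd60 in both comparisons. Lipg, encoding endothelial lipase, had 5 counts in AirD7, 2 in O2D7, 36 in AirD60 and 23 in O2D60, that is 126, 43.8, 1559 and 1306 CPM. Its log2 ratio was 3.63 (2.28 to 5.34) in air and 4.90 (2.88 to 8.03) after hyperoxia, and in Acta2-high cells, alveolar fibroblast-like cells and leukocytes it stayed at or below 22.2 CPM in every library. Dgkh, a diacylglycerol kinase gene, was at 352, 526, 1776 and 1533 CPM, a ratio of 2.33 (1.43 to 3.32) and 1.54 (0.70 to 2.40). In alveolar fibroblast-like cells Dgkh was at 32.8, 31.9, 35.6 and 53.7 CPM. Gpx3, an extracellular glutathione peroxidase, had 2, 1, 35 and 29 counts, a ratio of 4.91 (2.95 to 8.01) and 6.23 (3.64 to 11.58). Gpx3 was also higher at pnd60 in alveolar fibroblast-like cells, at 141, 164, 4983 and 4777 CPM. Prelp, a basement membrane-anchoring proteoglycan, had 1, 0, 36 and 18 counts in the core, and was likewise higher in alveolar fibroblast-like cells (42.1, 3.04, 2024 and 1833 CPM). Its core counts after hyperoxia were below the minimum of 20, so Prelp was compared in air only. Whether these differences with age differed between the core and the fibroblasts was not tested.

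Spp1, encoding the secreted matrix protein osteopontin, was high in 1 library. It had 1 count in AirD7, 0 in O2D7, 70 in AirD60 and 1 in O2D60, that is 3032 CPM (2364 to 3831) in AirD60, where it was found in 7 of 11 core cells with at most 19 counts in 1. The log2 ratio in air was 6.91 (4.39 to 12.24), and the ratio of O2D60 over AirD60 was -5.74 (-11.06 to -3.21). In the same library Spp1 was at 90.5 CPM in Acta2-high cells, 9.64 in alveolar fibroblast-like cells and 109.8 in leukocytes. With 1 library per condition, a difference between O2D60 and AirD60 and a difference between 2 pools of lungs cannot be told apart.

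Counts of list members past 2-fold are set below against the shares of all genes compared, which were 16.2% higher and 30.4% lower with age in air, 11.9% and 31.6% with age after hyperoxia, 4.01% and 5.56% for hyperoxia at pnd7, and 4.48% and 4.1% at pnd60. With 1 to 13 genes compared per list, 1 gene is often above these shares, and nothing is read from such a count. Within the PDGF pathway 2 genes had enough counts, Pdgfrb and Pdgfa. Pdgfrb, which chose the cells, differed by 0.48 (0.04 to 0.92) between the ages in air and 0.36 (-0.14 to 0.84) after hyperoxia. Pdgfa, a ligand of the alpha receptor, had 7, 13, 20 and 8 counts, a log2 ratio of 2.30 (1.0 to 3.78) in air and 0.67 (-0.80 to 2.05) after hyperoxia. In both hyperoxia comparisons 0 of 2 passed 2-fold.

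Among Notch genes, the receptor Notch3 was at 855.5 CPM in AirD7, 1381 in O2D7, 2599 in AirD60 and 2271 in O2D60. Its log2 ratio between the ages was 1.60 (0.97 to 2.25) in air and 0.72 (0.11 to 1.31) after hyperoxia, and that of hyperoxia over air was 0.69 (0.07 to 1.34) at pnd7 and -0.19 (-0.81 to 0.41) at pnd60. AirD7 was thus the lowest of the 4 libraries. Notch1 had 6, 23, 13 and 6 counts, with AirD7 again the lowest in CPM (151, 504, 563 and 341) and a ratio of hyperoxia over air of 1.74 (0.40 to 3.33) at pnd7. Heyl, a transcriptional target of Notch, had 21, 17, 6 and 9 counts and a ratio of -1.02 (-2.62 to 0.33) between the ages in air and 0.46 (-0.89 to 1.70) after hyperoxia, and both intervals include 0. Of the Notch genes compared, 1 of 5 was past 2-fold higher in hyperoxia at pnd7, 0 of 1 at pnd60, 1 higher and 1 lower of 2 with age in air and 0 of 4 with age after hyperoxia.

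The angiopoietin ligand Angpt1, which acts on endothelial TIE2, had 25 counts in AirD7, 11 in O2D7, 16 in AirD60 and 11 in O2D60. It was at 629 CPM in AirD7, 241 in O2D7, 693 in AirD60 and 625 in O2D60, so O2D7 was the low library. The ratio of hyperoxia over air was -1.38 (-2.55 to -0.31) at pnd7, and that of pnd60 over pnd7 after hyperoxia was 1.37 (0.03 to 2.72). Among the TGF-beta and BMP genes, Ltbp2, which binds the elastic fibre network, was at 931, 1622, 2036 and 2385 CPM. Ltbp2 was past 2-fold between the ages in air (1.13, 0.48 to 1.79) and 0.80 (0.21 to 1.41) higher in hyperoxia at pnd7. It was the only gene of this list past 2-fold in any comparison, with 2 or 3 compared in each.

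Of the cGMP genes, Gucy1b1 was at 2592, 2323, 2859 and 2669 CPM. Of the genes compared, the rule gene Gucy1a1 among them, 0 of 6 was past 2-fold in hyperoxia at pnd7 and 0 of 6 with age after hyperoxia. The gene past 2-fold in the other comparisons was Gucy1a2, the second alpha subunit, with 13, 18, 21 and 4 counts, which was 1.48 (0.41 to 2.60) higher with age in air and -2.00 (-4.00 to -0.43) in O2D60 over AirD60. Of the 2 ion channel genes compared, Kcnk3 was at 679, 855, 1516 and 1647 CPM. Its log2 ratio between the ages was 1.16 (0.39 to 1.94) in air and 0.95 (0.20 to 1.68) after hyperoxia, and those of hyperoxia over air were 0.33 (-0.41 to 1.10) and 0.12 (-0.64 to 0.87).

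Contractile genes were sparse. In air, Tpm1, a tropomyosin, was past 2-fold higher at pnd60 (10, 16, 12 and 12 counts), with an interval that includes no difference. Of the 5 genes compared, Myl9, a myosin light chain, was lower (26, 20, 6 and 6 counts, log2 -1.33, -2.90 to -0.02). After hyperoxia Mylk, the kinase of that light chain, was higher at pnd60 (22, 17, 18 and 18 counts, log2 1.46, 0.42 to 2.50), as was Tagln, of 7 genes. The summed smooth muscle markers of the core, a list that holds Mylk, Tagln and Des, were 0.93 (0.32 to 1.53) higher with age after hyperoxia and 0.93 (0.21 to 1.66) higher in O2D60 than AirD60, and the summed myofibroblast markers 1.37 (0.49 to 2.25) and 1.17 (0.16 to 2.23). Their part in the result was not tested. Tagln had 9 counts in O2D60, 7 of them in 1 cell. Des, encoding desmin, had 15, 17, 8 and 13 counts and was 1.09 (-0.29 to 2.57) higher in O2D60 than AirD60, an interval that includes no difference.

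Type IV collagen chains were within 2-fold between the exposures. Col4a1 was 0.24 (-0.03 to 0.52) higher on the log2 scale in hyperoxia at pnd7 and -0.07 (-0.54 to 0.40) at pnd60, and Col4a2 differed by -0.06 (-0.42 to 0.30) and -0.10 (-0.75 to 0.54). With age the ratio of Col4a2 was -0.52 (-1.01 to -0.04) in air and -0.56 (-1.12 to -0.03) after hyperoxia. Sparc, a collagen-binding matrix protein, was instead higher with age, by 0.59 (0.26 to 0.92) and 0.49 (0.13 to 0.84). None of the basement membrane genes passed 2-fold in any comparison (0 of 7, 0 of 4, 0 of 6 and 0 of 5). Col3a1, a fibrillar collagen chain, was at 2441, 3419, 1863 and 2328 CPM and 0.49 (0.11 to 0.87) higher in hyperoxia at pnd7. The summed collagen level was 13763 CPM in AirD7, 16698 in O2D7, 13471 in AirD60 and 13799 in O2D60, a log2 ratio of hyperoxia over air of 0.28 (0.12 to 0.44) at pnd7 and 0.03 (-0.21 to 0.28) at pnd60. No collagen gene passed 2-fold at pnd7 (0 of 7) or with age in air (0 of 7). Col6a2, a chain of type VI collagen, had 9, 8, 9 and 14 counts, 8 of the 14 in 1 cell, and was the 1 of 7 past 2-fold in hyperoxia at pnd60 (1.03, -0.28 to 2.42). With age after hyperoxia Col6a2 (2.18, 0.83 to 3.64) and Col6a1 (1.79, 0.62 to 3.00) were higher, 2 of 9. The log2 ratio of the summed collagen genes with age was instead -0.28 (-0.49 to -0.06) after hyperoxia, and -0.03 (-0.24 to 0.17) in air. Of the elastic fibre genes, Fbn1 and Mfap2, encoding microfibril proteins, were past 2-fold lower with age in air (2 of 3 genes, beside 30.4% of all genes) and after hyperoxia (2 of 4, beside 31.6%). Mfap2 had 26, 28, 4 and 1 counts and Fbn1 30, 27, 8 and 4, with the pnd60 libraries lower for both. In hyperoxia at pnd7 Loxl2, a collagen and elastin crosslinking enzyme, was higher (6, 17, 8 and 6 counts, 1.30, -0.11 to 2.93), 1 of 5 genes, while the log2 ratio of the summed elastic fibre genes was -0.20 (-0.39 to -0.01). At pnd60 0 of 1 gene passed 2-fold and the ratio of the sums was 0.33 (0.02 to 0.64). With age the ratio of the sums was -0.58 (-0.84 to -0.33) in air and -0.04 (-0.30 to 0.21) after hyperoxia.

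Between hyperoxia and air, 773 genes were compared in the core at pnd7, of which 4.01% (31 genes) were higher and 5.56% (43 genes) lower past 2-fold in O2D7. This count of 74 was 294 when the core was joined by the cells with 5 or 6 rule genes and Ptprc or Epcam counts, and 11 in cells thinned to 1000 counts. At pnd60, 268 genes were compared, of which 4.48% (12 genes) were higher and 4.1% (11 genes) lower in O2D60, and these 23 were 44 and 5 under the same changes. At pnd7 the added cells raised the AirD7 counts from 39745 to 93998 and left O2D7 at 45633. The number of genes that reach the minimum also changes under these settings, so these counts are not shares. With median-of-ratios size factors the pnd60 split was 5 higher and 20 lower, with TMM factors 10 and 15, and the median log2 ratio moved from -0.02 to -0.15 with the former. The whole interval lay past 2-fold for 4 higher and 3 lower genes at pnd7 and for 1 higher and 1 lower gene at pnd60. Of the 230 genes compared at both ages, 0 passed 2-fold at both, in the same or in opposite directions.

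At pnd7 the highest ratios came from 1 cell. Top2a, Ube2c and Cenpf, which serve in mitosis, had 23, 20 and 31 counts in O2D7, all in 1 cell, against 2, 1 and 6 in AirD7. AirD7 also held a core cell with mitotic RNA, in which all 12 counts of Mki67 of that library were found, against 19 in 1 cell of O2D7. Of genes spread over more cells, Pcdh1, a protocadherin, had 18 counts in 8 cells of O2D7 and 3 counts in 3 cells of AirD7, a log2 ratio of 2.39 (0.61 to 4.79). Tmem178 was at 811 CPM in O2D7, in 9 of 9 cells, and at 277 CPM in AirD7, in 4 of 8 cells, a ratio of 1.55 (0.55 to 2.67). Jun had 24 counts in O2D7, 13 of them in 1 cell, against 8 in AirD7 (1.39, 0.18 to 2.75), and its ratio was -0.50 when the cells with 5 or 6 rule genes and Ptprc or Epcam counts were added back. Rgs5 was the 1 of 13 further pericyte genes that passed 2-fold (1.39, 0.10 to 2.86).

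Lower in O2D7 were Mest, at 241 CPM against 1283 in AirD7 (log2 -2.41, -3.50 to -1.45), and Tppp3, a tubulin-binding protein. Tppp3 was at 453 CPM in AirD7, 43.8 in O2D7, 1256 in AirD60 and 1760.4 in O2D60, so both pnd7 libraries lay below both pnd60 libraries and O2D7 was the lowest. Its ratio at pnd7 was -3.37 (-6.52 to -1.31) on 2 against 18 counts, of which 8 were in 1 cell. Fjx1 had 4 counts against 18 (-2.37), and Tgfb1i1, a focal adhesion protein gene, 9 against 23 (-1.55, -2.85 to -0.39). Epas1, encoding the oxygen-regulated transcription factor HIF-2 alpha, stayed within 2-fold of air at both ages. It was at 981 CPM in AirD7 and 570 in O2D7 (-0.78, -1.56 to -0.03), and at 1256 in AirD60 and 2271 in O2D60 (0.85, 0.13 to 1.60).

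At pnd60 Timp3, a metalloproteinase inhibitor, had the highest ratio (3.05, 1.80 to 4.59) with 38 counts in O2D60 against 6 in AirD60, but 25 of the 38 were in 1 cell. Dusp1, an immediate early phosphatase, had 14 counts against 6 (1.61, 0.14 to 3.28), and Lepr, the leptin receptor, 19 against 11 (1.18, 0.03 to 2.40). Emid1 was the 1 of 10 further pericyte genes past 2-fold, with 15 counts against 9 (1.13, -0.16 to 2.50). Lower in O2D60 were Spp1, Gucy1a2, Phldb2 (3 counts against 18, -2.19), the complement protease C1s1 (6 against 25, -1.67, -3.24 to -0.35) and the Wnt receptor Fzd1 (6 against 22, -1.48). Cxcl14, a chemokine, had 0, 0, 26 and 8 counts, so it was found at pnd60 only and its log2 ratio of O2D60 over AirD60 was -1.31 (-2.66 to -0.12). In alveolar fibroblast-like cells Cxcl14 was at 52.2, 36.5, 812 and 659 CPM.

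**Figure D5:**
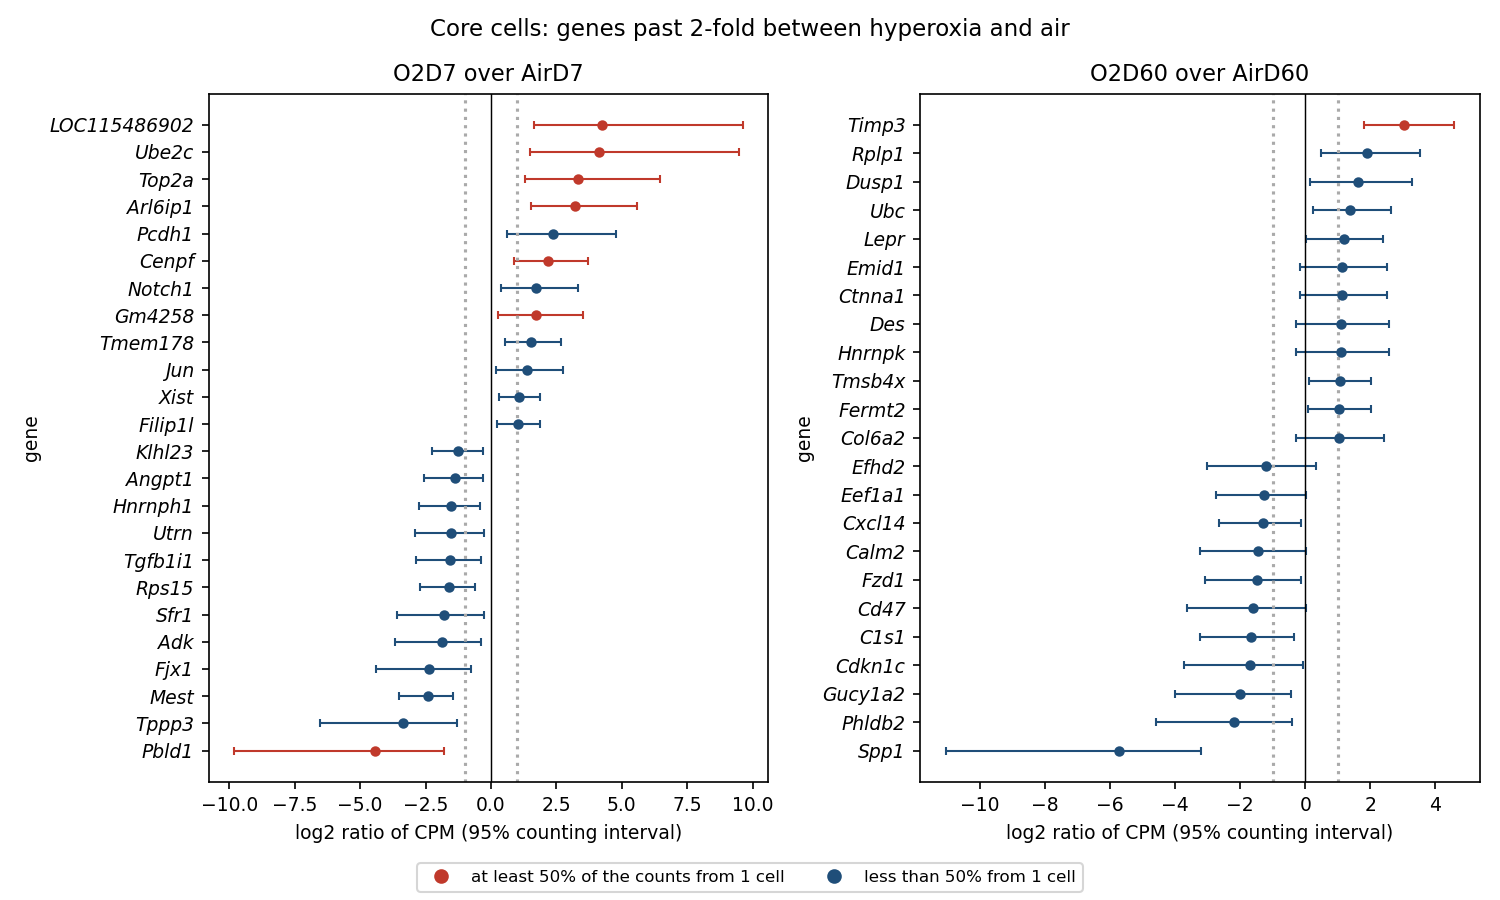
log2 ratio of CPM, hyperoxia over air, for the named genes of the core at pnd7 (left) and pnd60 (right), with exact 95% counting intervals; dotted lines mark 2-fold. Red points are genes with at least 50% of their counts from 1 cell, which include Ube2c, Top2a and Cenpf at pnd7 and Timp3 at pnd60, and Mest and Spp1 are among the lowest.

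Senescence was the subject of the study, and its 2 best known inhibitor genes were nearly absent from the core. Cdkn1a, which encodes p21, had 0, 0, 0 and 1 counts, and Cdkn2a, which encodes p16, had none, so these genes could not be compared at this depth. The whole list summed to 72, 102, 39 and 25 counts, with Hmgb1 the most counted gene except in AirD60, where it was Cdkn1c. Cdkn1c, encoding the inhibitor p57, had 4, 11, 17 and 4 counts, 8 of the 17 in 1 cell, and passed 2-fold as higher with age in air (2.87) and lower in O2D60 than AirD60 (-1.70, -3.73 to -0.08). With the cells that had Ptprc or Epcam counts added back, its ratio with age in air was -0.19. Hmgb1, a chromatin protein lost from senescent nuclei, had 46, 62, 6 and 8 counts and was lower with age in both comparisons. At pnd7 0 of 1 gene of the list passed 2-fold between the exposures. A further list held genes linked with the secretions of senescent cells, the receptor gene Cxcr4 included. Of this list 0 of 3 passed at pnd7, and at pnd60 Timp3 was higher and Cxcl14 lower of 4. The whole list summed to 66, 106, 91 and 97 counts, a log2 ratio of hyperoxia over air of 0.48 (0.03 to 0.95) at pnd7, where Cxcr4 gave 22 and 39 of the counts, and 0.48 (0.06 to 0.91) at pnd60, where Timp3 gave 38 of the 97. Most of these 38 counts lay in the 1 cell described above for Timp3. With age the sum was 1.25 (0.77 to 1.73) higher in air and 1.25 (0.83 to 1.66) higher after hyperoxia. With age in air Cxcl14 and Timp2 were higher of 4, and after hyperoxia Timp2 and Timp3 of 4.

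Cell cycle genes summed to 129 counts in AirD7, 224 in O2D7, 9 in AirD60 and 4 in O2D60. Hmgb2 had 52 counts in AirD7, 51 of them in 1 cell, and 47 in O2D7, 42 of them in 1 cell, so at pnd7 the counts of Hmgb2 came mostly from 1 cell in each library. With age, 2 of 2 cell cycle genes were past 2-fold lower in air, beside 30.4% of all genes. After hyperoxia 5 of 5 were lower, beside 31.6%, with Hmgb2 among them in both comparisons. At pnd7 3 of 7 cell cycle genes were past 2-fold higher in hyperoxia (Top2a, Cenpf and Ube2c), beside 4.01% of all genes, and none had enough counts at pnd60. All O2D7 counts of these 3 genes lay in 1 cell. The cell cycle list counts therefore rest in large part on single cells, and nothing is read from them about the core as a group. The imprinted growth genes had Mest lower of 3 at pnd7. The antioxidant genes had Prdx1 lower in hyperoxia at pnd7 (12 counts against 24), 1 of 2 compared, and 0 of 1 past 2-fold at pnd60. Immediate early genes, which are readily induced by cell handling, summed to 24, 63, 44 and 65 counts. The log2 ratio of these sums was 1.19 (0.49 to 1.94) for hyperoxia over air at pnd7, 0.95 (0.38 to 1.54) at pnd60, 1.66 (0.91 to 2.44) with age in air and 1.42 (0.90 to 1.94) with age after hyperoxia, and its part in the other comparisons was not tested. Of single genes, Jun was higher of 1 compared at pnd7 and Dusp1 higher of 1 at pnd60. Ifitm3, the 1 interferon gene with enough counts, had 31, 25, 17 and 16 and passed 2-fold in no comparison. Nr1d1, a clock repressor, had 0, 0, 13 and 8 counts. Xist, expressed from the inactive X chromosome of females, had 21, 51, 17 and 1 counts and the Y-linked Ddx3y 0, 3, 2 and 1. The part of the sex of the mice in the results was not tested.

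On the whole set of 126 cells, with at least 50 counts asked of a gene, 3.71% of 2643 genes were higher and 5.03% lower in hyperoxia at pnd7, and 7.08% higher and 2.94% lower of 579 at pnd60. With age, 12.7% were higher and 20% lower of 1601 genes in air, and 15.4% higher and 22.9% lower of 1616 after hyperoxia. With TMM factors the age splits were 112 higher and 482 lower, and 145 and 578, in place of 203 and 320, and 249 and 370, and with median-of-ratios size factors 119 and 446, and 161 and 518. Genes of other cells were among the leading genes of both hyperoxia comparisons. At pnd60 S100a8, S100a9, Chil3 and Ccl6, genes of neutrophils and macrophages, led the higher group, and at pnd7 the secretoglobin gene Scgb3a2 and Eln were among the lowest. Sftpc, encoding surfactant protein C of type II epithelium, was at 72456, 108373, 56423 and 34629 CPM in the members outside the core, against 201, 373, 173 and 114 CPM in the core. Of 545 genes compared at both ages, 5 were higher in hyperoxia at both and 0 lower at both. These were Fabp5 (2.39 and 1.24), Ier2 (1.09 and 1.46), Ccl6 (1.68 and 3.67), Lgals1 (1.10 and 1.20) and Msrb1 (1.13 and 1.61). In the core, Fabp5 and Ccl6 had 0 counts in all 4 libraries, and the ratios of Lgals1 were -0.11 at pnd7 and 0.39 at pnd60.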

How the data were processed

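The authors deposited, for each 10x Genomics 3′ library, a matrix of UMI counts per gene and barcode, with no pooling of libraries. The submitters' processing notes name Cell Ranger, mm10 and Seurat 3.2.1, and the matrix headers give version 3.1.0. Each matrix held 42454 features, 2346 of them named as a further copy of another, and only 2 mitochondrial features. The study kept barcodes with 700 to 8000 genes and under 5% mitochondrial counts, and the same limits were applied here. Filtered counts summed to 16648251 in AirD7, 13576172 in O2D7, 14744081 in AirD60 and 16533775 in O2D60, with medians per cell of 3915, 7119.5, 2168 and 2315.5. The number of mice pooled was stated for the pnd7 hyperoxia suspension of SD7 only (3).

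The members, the gene lists and the comparisons were chosen with earlier results of these data known, and the core and its minimum of 20 counts after its values were seen. Raw counts were summed per library (Python 3.11.15, scipy 1.17.1), with 50 counts as the minimum for the whole set. Named genes were the 12 higher and 12 lower past 2-fold whose interval limit nearest to 0 lay farthest from it, the 12 with the largest smallest ratio over the 4 libraries in each direction against a neighbouring class, and the members of the 20 lists of function and 12 lists of markers, of which 2 genes were not among the features. TMM factors came from edgeR 4.0.16 and were used for scaling only. Scrublet (scanpy 1.11.5) marked 1 filtered cell in AirD7, 4 in O2D7, 138 in AirD60 and 156 in O2D60, or 0.0433%, 0.321%, 3.14% and 3.28%, and 0 members, so at pnd7 doublets were in effect not called and none were removed. The alternatives were other limits of the rule, thinned cells, other count minimums and other scalings. The intervals of the log2 ratios were tested on Poisson counts drawn from the summed data with known folds, without variation between cells. The filter, the rule, the core and the scalings were not tested in this way.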

Additional observations from a re-analysis of the deposited data

Results flagged for a closer look

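S100g, which encodes a calcium-binding protein, differed between the exposures in opposite directions at the 2 ages over all 126 cells. Its log2 ratio of hyperoxia over air was 1.10 (0.80 to 1.41) at pnd7, on 270 counts in O2D7 and 135 in AirD7, and -1.43 (-2.28 to -0.63) at pnd60, on 20 counts in O2D60 and 42 in AirD60. It was picked out because the single library of each exposure moved one way at pnd7 and the other way at pnd60. The difference between the ages was not tested. In the core S100g had 0 counts in all 4 libraries. The summed level of the 8 epithelial genes over all 126 cells moved the same way, with a log2 ratio of 0.53 (0.51 to 0.56) at pnd7 and -0.48 (-0.55 to -0.41) at pnd60, and its part in the result was not tested.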

How the results depend on the processing

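No paired analysis was possible because no exposure at either age had a second library, and for this reason no replicate could be left out. For the whole set, 913 values held under the alternatives, 132 moved and 19 turned direction, and for the core 588, 27 and 3. The share of pericytes among filtered barcodes, in AirD7, O2D7, AirD60 and O2D60, was 0.737%, 1.36%, 0.341% and 0.315% with 3 or more rule genes, 0.433%, 0.722%, 0.296% and 0.168% with 5 or 6, and 0.347%, 0.722%, 0.250% and 0.168% in the core. It was 0.997%, 1.36% and 0.315% in AirD7, O2D7 and O2D60 with no Ptprc or Epcam counts, and 0.997% and 1.36% in AirD7 and O2D7 with no Acta2 counts. The number of genes compared depends on the cells and the minimum used, so the counts of genes below are not shares. For the genes past 2-fold in the whole set, the counts were 231 for hyperoxia at pnd7, 58 at pnd60, 523 with age in air and 619 with age after hyperoxia. In this order they became 104, 18, 265 and 224 with 3 or more rule genes, 66, 2, 163 and 67 with 5 or 6, 3, 1, 77 and 67 in the core at the same 50 counts, and 15, 4, 41 and 38 in cells thinned to 1000 counts. Minimums of 1, 20 and 100 counts gave 2978, 2776, 4872 and 5132, then 784, 307, 1528 and 1841, then 101, 20, 218 and 248. Without Ptprc and Epcam counts they were 121 at pnd7, 267 with age in air and 265 after hyperoxia, with the rule on cells thinned to 1500 counts 116 and 17 for hyperoxia at pnd7 and pnd60, and with mean CPM per cell 384 at pnd7. Genes of the lists past 2-fold numbered 51, 7, 54 and 62. They became 22 and 2 for hyperoxia and 31 for age after hyperoxia with 3 or more rule genes, 15, 0, 14 and 2 with 5 or 6, 2, 0, 6 and 2 in the core, 5, 1, 7 and 6 in thinned cells, 18 and 3 for hyperoxia with the thinned rule, and 3 at pnd60 and 33 with age after hyperoxia without Ptprc and Epcam counts. For the core the counts were 74, 23, 245 and 227. A minimum of 50 counts gave 3, 1, 77 and 67 and thinned cells 11, 5, 34 and 23. With the 4 cells that had Ptprc or Epcam counts added back, they were 294, 44 and 504 for the first 3 comparisons. Directions that turned at pnd7 were those of Csrp2 (-0.40), H2ac8 (-0.23), Enpp2 (-0.58) and Aspn (0.71) with the thinned rule, and of Jun in the core with those cells added back (-0.50). At pnd60 they were those of Mgp (5.73 with 3 or more rule genes, 5.67 without Acta2 counts, 2.20 with the thinned rule), Fth1 (-0.50), Pcdh18 (0.010) and Notch3 (0.42) without Ptprc and Epcam counts, Xist (0.60 with the thinned rule) and, in the core with those cells added back, Tmsb4x (-0.19). With age in air they were Mgp (-3.09 without Acta2 counts, -0.10 with the thinned rule), Col1a1 (1.0 in the core, 1.87 with 5 or 6 rule genes) and Cdkn1c (-0.19 in the core with those cells added back). With age after hyperoxia they were Ctsd (-0.083 with 3 or more rule genes), Ccl6 (-3.21 with the thinned rule, -0.11 with mean CPM per cell) and Lpl (-0.18 with mean CPM per cell). The cause was not tested. Depth limits the core, in which 36 cells with 17610 to 45633 counts a library give intervals wider than 2-fold for a gene of 20 counts. With 1 library per condition no value separates an exposure from a pool of lungs.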
